A study of Sus scrofa with 12 samples.

Results

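The trophectoderm is the outer epithelium of the blastocyst, the layer that pumps fluid into the cavity and later forms the placenta. Its fate is set in mouse embryos by TEAD4, a DNA-binding partner of the Hippo pathway coactivator YAP1, which turns on CDX2, the homeobox gene that keeps pluripotency genes off in outer cells. KRT8 and KRT18 encode the keratins that pair to form the intermediate filaments of simple epithelia. LGALS3 encodes galectin-3, a lectin that binds galactose-containing sugars, and DAB2 encodes an adaptor that carries receptors into clathrin-coated pits. These 6 of the 12627 genes named on the arrays were followed by all probes that carry their symbols in the platform annotation. That gave 33 of 89014 probes, 16 of 43794 on the first array design and 17 of 45220 on the second. CDX2 had 3 probes on the first design and none among those with a symbol on the second, so it was followed on the first design.

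The data compare pig (Sus scrofa) blastocysts collected in vivo, early blastocysts at 5 days and hatched blastocysts at 5.5 days after insemination, the latter after the embryo has left the zona pellucida. Both stages were hybridised directly against each other on 2 Agilent array designs. Each design was used for 6 arrays, 3 with the hatched stage in Cy5 and 3 with the early stage in Cy5. No line, breed, genotype or treatment that differs between the stages is given in the labels, nor how many embryos or litters went into an RNA sample. Arrays are called hatched array 1 to 3 or early array 1 to 3 after the stage in Cy5, with numbers in order of deposition.

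The value per probe and array is a log ratio of both stages. It is read as log2, a base inferred from the range of the values, and the fold differences rest on it. Which stage is the numerator is not given in the sources used here, so a positive or negative ratio does not tell in which stage the transcript was more abundant. Probes and genes are ordered by the deposited sign, and turning the ratio reverses each such order. A ratio holds no level, so the presence of a marker could not be checked. In a whole embryo a change in the number of cells of a type and a change in RNA per cell cannot be told apart. Errors are standard errors (SE) of the limma fit over 6 arrays, and a probe or gene is called where its adjusted p, by limma with Benjamini-Hochberg adjustment over all probes or all genes of its array set, is under 0.05. Whether arrays share RNA extracts is not stated in the labels, and the spread behind the p-values may thus be technical.

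The residuals after the mean and the dye term were removed were used to match each hatched array with 1 early array. Each of the 3 pairs is thus dye-swapped by construction. The match with the highest summed correlation was the same on both designs. Hatched array 1 and early array 2, here pair A, correlated in these residuals at 0.64 over all probes of the first design and 0.54 on the second. Hatched array 2 and early array 1, pair B, correlated at 0.72 and 0.70. Hatched array 3 and early array 3, pair C, correlated at 0.37 and 0.47. Over 3817 genes measured on both designs, the residuals of each array of the first design correlated best with an array of the same pair on the second, at 0.15 to 0.39. Whether both designs carry the same RNA is not stated in the labels, and values on the second design are not treated as an independent repeat. Standard deviations of the log2 ratios were 0.301 to 0.462 on the first and 0.364 to 0.512 on the second design, lowest on both for the arrays of pair B.

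On the first design 3 of the 16 probes were called, all positive, against 4.64% of all probes (2.16% positive). They were the only LGALS3 probe, 1 of 2 KRT8 probes and 1 of 2 KRT18 probes. On the second design 9 of 17 were called, against 6.12% of all probes (2.49% positive, 3.62% negative). Of these 8 were positive, namely 7 of 8 LGALS3 probes and 1 of 3 KRT8 probes, and the DAB2 probe was negative. No CDX2 or TEAD4 probe was called. Since 7 of the 9 probes on the second design share 1 target, the count of probes is not a count of genes. Averaged by gene, 3 of 6 genes were called on the first design (LGALS3, KRT8 and KRT18) and 3 of 5 on the second (LGALS3, KRT8 and DAB2), against 4.75% and 11.0% of all genes (2.38% and 5.27% positive, 5.72% negative on the second). The median ratio of the member genes was 0.38 on the first design and 0.67 on the second, against 0.0027 and 0.0050 over all genes.

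**Figure D1:**
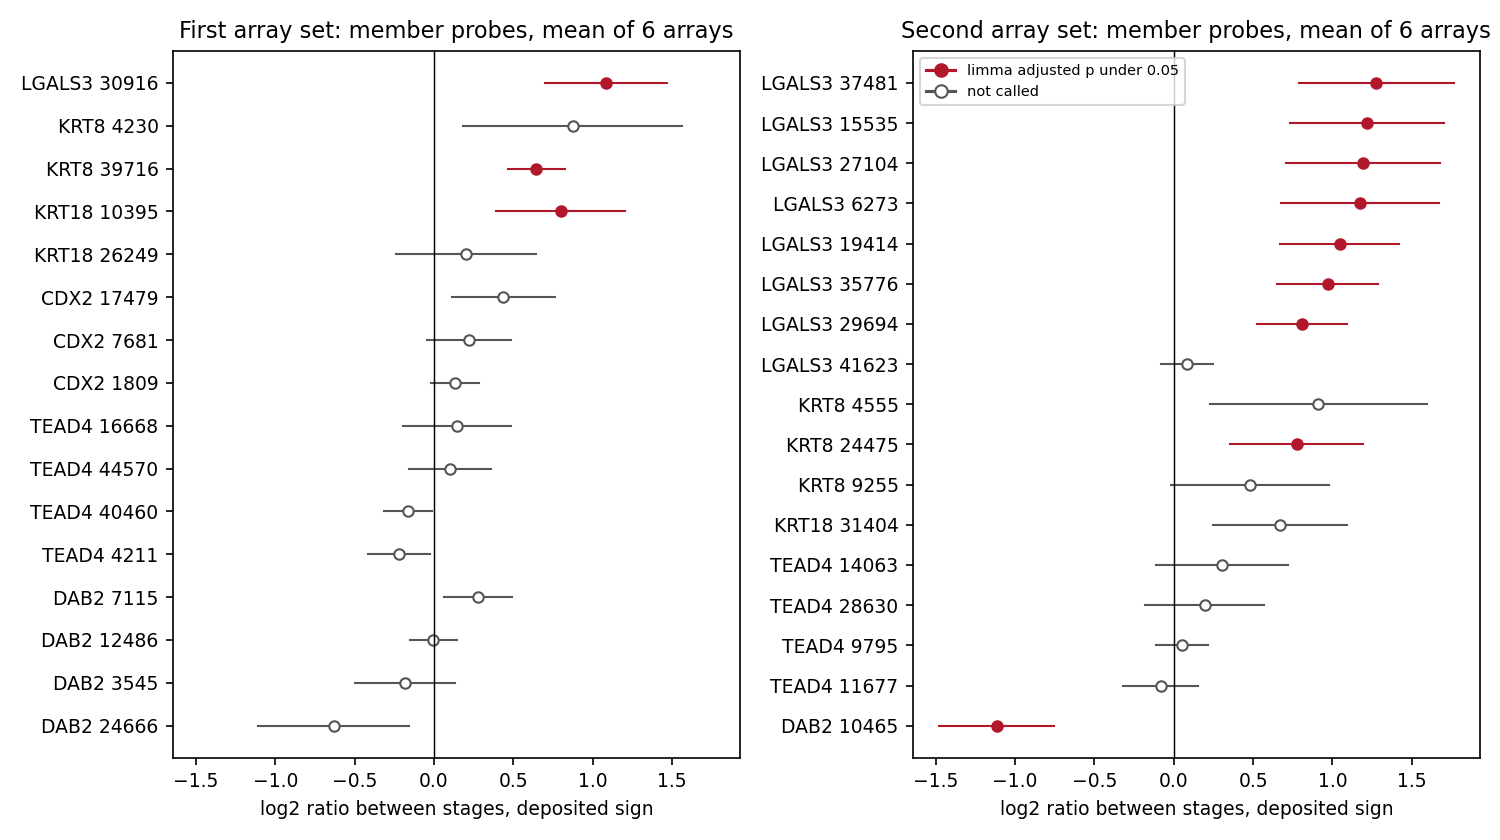
Mean log2 ratio (x axis, deposited sign) of each member probe (y axis, gene and probe number) over 6 arrays of the first and the second array set. Bars are unadjusted 95% intervals from limma and filled red points are called. The LGALS3 probes lie between 0.81 and 1.28 apart from probe 41623 at 0.08, and the DAB2 probe of the second set lies lowest at -1.12.

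LGALS3 had the largest positive gene ratios among the members. On the first design its probe 30916 read 1.89, 0.71 and 1.30 on hatched arrays 1 to 3 and 0.45, 1.35 and 0.83 on early arrays 1 to 3. All 6 arrays lay on the positive side, as they did for 3.51% of all probes, and the lowest values were those of pair B. The mean was 1.09 ± 0.16 (SE, n = 6 arrays; limma adjusted p = 0.0123), a 2.13-fold difference between stages. As a gene it ranked 78 of 11913 from the positive end, and 37 of 4531 on the second design.

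The second design carried 7 LGALS3 probes annotated to the same RefSeq transcript. Their means ran from 0.81 (probe 29694) to 1.28 (probe 37481), and each was positive on all 6 arrays, as were 4.33% of all probes of that design, and called (adjusted p = 0.0069 to 0.0179). Leaving out hatched array 3 or early array 3 ended the calls of probes 6273, 15535, 27104 and 37481 (adjusted p = 0.0505 to 0.071), and the slide as a block ended those of 6273 (0.0577) and 27104 (0.0553). Without early array 2 probes 6273 (0.0615) and 27104 (0.0541) lost theirs, and without hatched array 1 probe 6273 did (0.051). With limma on 3 pair averages none of the 7 probes was called (adjusted p = 0.116 to 0.197). Over all probes of that design this fit called 41, against 2766 in the main fit. On hatched array 1 they read 1.52 to 2.24, on early array 2 they read 0.70 to 1.82, and on pair B they read 0.49 to 0.75 (hatched array 2) and 0.09 to 0.64 (early array 1). Pair C lay between, with 1.08 to 1.37 on hatched array 3 and 0.59 to 1.12 on early array 3. All 7 probes had the same order of pair means, highest on pair A and lowest on pair B. Their average was 1.10 ± 0.18 (adjusted p = 0.0102), next to 1.09 on the first design. The ratios of probes 29694 and 35776 on early array 2, at 0.70 and 0.85, were below the 1.26 to 1.82 of the other 5. Of these 7 probes, 29694 also had the largest dye term, 0.35, with 0.03 for probe 6273.

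The eighth probe with the symbol LGALS3, 41623, stood apart from the other 7. It read -0.11, 0.13 and 0.02 on hatched arrays 1 to 3 and 0.14, 0.11 and 0.21 on early arrays 1 to 3. Its mean was 0.08 ± 0.07 (95% interval -0.08 to 0.25; adjusted p = 0.66). The accession given for this probe belongs to LGALS2, the gene of galectin-2, in the RefSeq table of the assembly Sscrofa11.1. It was therefore left out of the LGALS3 average. Of the 7 others 6 exceeded it on 6 of 6 arrays, by 0.89 to 1.19 in the mean (exact sign-flip permutation test, 2-sided, p = 0.0312, the smallest that 6 arrays allow; adjusted p = 0.118 over 64 differences), and probe 29694 exceeded it on 5 of 6, by 0.73 (exact p = 0.0625; adjusted p = 0.174). These tests flip each array alone, whereas the arrays group in 3 pairs, and flipping whole pairs allows no p below 0.25.

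**Figure D2:**
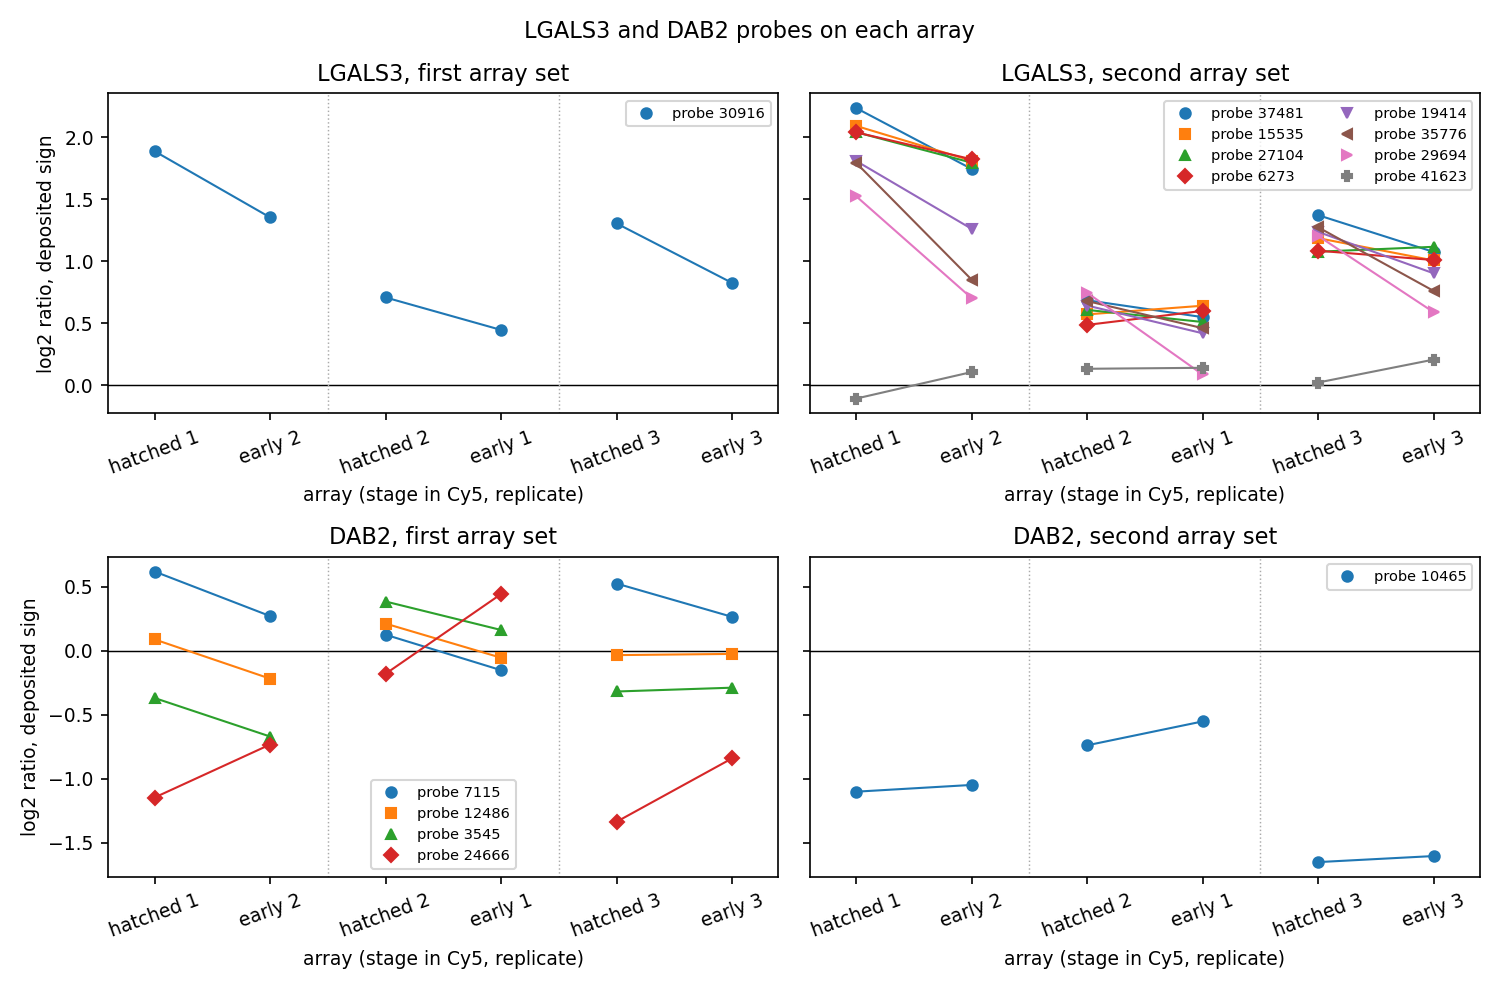
Log2 ratio (y axis, deposited sign) of each LGALS3 and DAB2 probe on each array (x axis, stage in Cy5 and replicate). Lines join the arrays of a residual pair. The LGALS3 probes fall to between 0.09 and 0.75 on pair B, probe 41623 stays near 0, and DAB2 probe 10465 reaches -1.65 on pair C.

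DAB2 lay on the opposite side, on the second design. Probe 10465 read -1.10, -0.74 and -1.65 on hatched arrays 1 to 3 and -0.55, -1.05 and -1.61 on early arrays 1 to 3. All 6 arrays were negative, as they were for 5.62% of all probes, and the arrays of a pair differed by at most 0.19. The mean was -1.12 ± 0.16 (adjusted p = 0.00669), a 2.17-fold difference.

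The 4 DAB2 probes of the first design did not move together. Probe 24666 came closest to the second design, with -1.15, -0.18 and -1.34 on hatched arrays and 0.44, -0.73 and -0.84 on early arrays, a mean of -0.63 ± 0.21 (adjusted p = 0.173). Probe 7115 lay on the other side, at 0.62, 0.13 and 0.53 on hatched arrays and -0.15, 0.27 and 0.27 on early arrays, a mean of 0.28 ± 0.09 (adjusted p = 0.187). Probe 3545 had a mean of -0.18 ± 0.14 and probe 12486 one of -0.0045 ± 0.06. On pairs A and C 24666 and 3545 were negative on all 4 arrays and 7115 positive on all 4. Without pair B 24666 was called at -1.01 (adjusted p = 0.00146) and 3545 at -0.41 (0.0431) on the negative side and 7115 at 0.42 (0.0194) on the positive side. Over all probes of this design the calls then rose from 2032 to 4264. Without early array 1 alone 24666 was called at -0.84 (0.0411). The average over the 4 probes was -0.14 ± 0.08 (adjusted p = 0.484). Neither the accession of 7115 nor that of 10465 matched the RefSeq table, and probes 24666, 3545 and 12486 carried none. Whether the DAB2 probes read 1 transcript was therefore not tested.

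The keratin genes lay on the positive side, by probes that differed among themselves. On the first design KRT8 probe 39716 read 0.81, 0.72 and 1.08 on hatched arrays 1 to 3 and 0.32, 0.32 and 0.64 on early arrays 1 to 3. It was positive on all 6 arrays, with the hatched arrays above the early ones, and its mean was 0.65 ± 0.08 (adjusted p = 0.00569), a 1.57-fold difference. KRT8 probe 4230 read 1.91, 0.76 and -0.15 on hatched arrays and 0.88, 1.86 and -0.0056 on early arrays. Its mean of 0.88 ± 0.30 was larger but was not called (adjusted p = 0.195), and its pair means were 1.89, 0.82 and -0.08 on pairs A, B and C.

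The same contrast was seen between KRT8 probes of the second design. Probe 4555 read 1.81, 0.78 and -0.04 on hatched arrays and 0.91, 2.06 and -0.05 on early arrays, close to probe 4230 on every array. Probe 9255 followed it at 1.10, 0.15 and -0.0069 on hatched arrays and 0.41, 1.41 and -0.18 on early arrays. Probe 24475 instead read 1.05, 0.73 and 1.50 on hatched arrays and -0.16, 0.27 and 1.26 on early arrays, and was highest where the other 2 were lowest. Their means were 0.91 ± 0.30 (adjusted p = 0.148), 0.48 ± 0.22 (0.329) and 0.78 ± 0.18 (0.0473). The call of 24475 ended without the dye term (adjusted p = 0.0553), with a robust spread (0.0684), the slide as a block (0.131), the 4-array slide (0.0732), 3 pair averages (0.282) and on leaving out any 1 array of pairs A and C (0.0855 to 0.181). All 5 KRT8 probes were annotated to 1 RefSeq transcript. On pair C 2 of them thus averaged 0.86 and 1.38, and the other 3 averaged -0.08, -0.04 and -0.09.

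KRT18 divided its first-design probes in the same way. Probe 10395 read 1.11, 0.29 and 1.24 on hatched arrays and 0.09, 0.79 and 1.28 on early arrays, a mean of 0.80 ± 0.17 (adjusted p = 0.0462). That call ended with a robust spread (adjusted p = 0.0847), the slide as a block (0.149), the 4-array slide (0.0705), 3 pair averages (0.311) and on leaving out any 1 array of pairs A and C (0.152 to 0.162). Probe 26249 read 0.89, 0.50 and -0.62 on hatched arrays and 0.22, 0.49 and -0.25 on early arrays, a mean of 0.20 ± 0.19 (adjusted p = 0.714). They differed by at most 0.29 on pairs A and B and lay on opposite sides of 0 on pair C. This split of the keratin probes on pair C was noticed in the data and is a description with no test of its own. The probe of the second design, 31404, read 1.35, 0.34 and 0.97 on hatched arrays and -0.29, 0.73 and 0.93 on early arrays, and resembled 10395 on pair C. Its mean was 0.67 ± 0.18 (adjusted p = 0.0824). It was called at 0.996 without pair B (adjusted p = 0.0012), at 0.86 without early array 1 (0.0196) and at 0.81 without hatched array 2 (0.0398). Without pair B the calls over all probes of that design rose from 2766 to 5448.

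**Figure D3:**
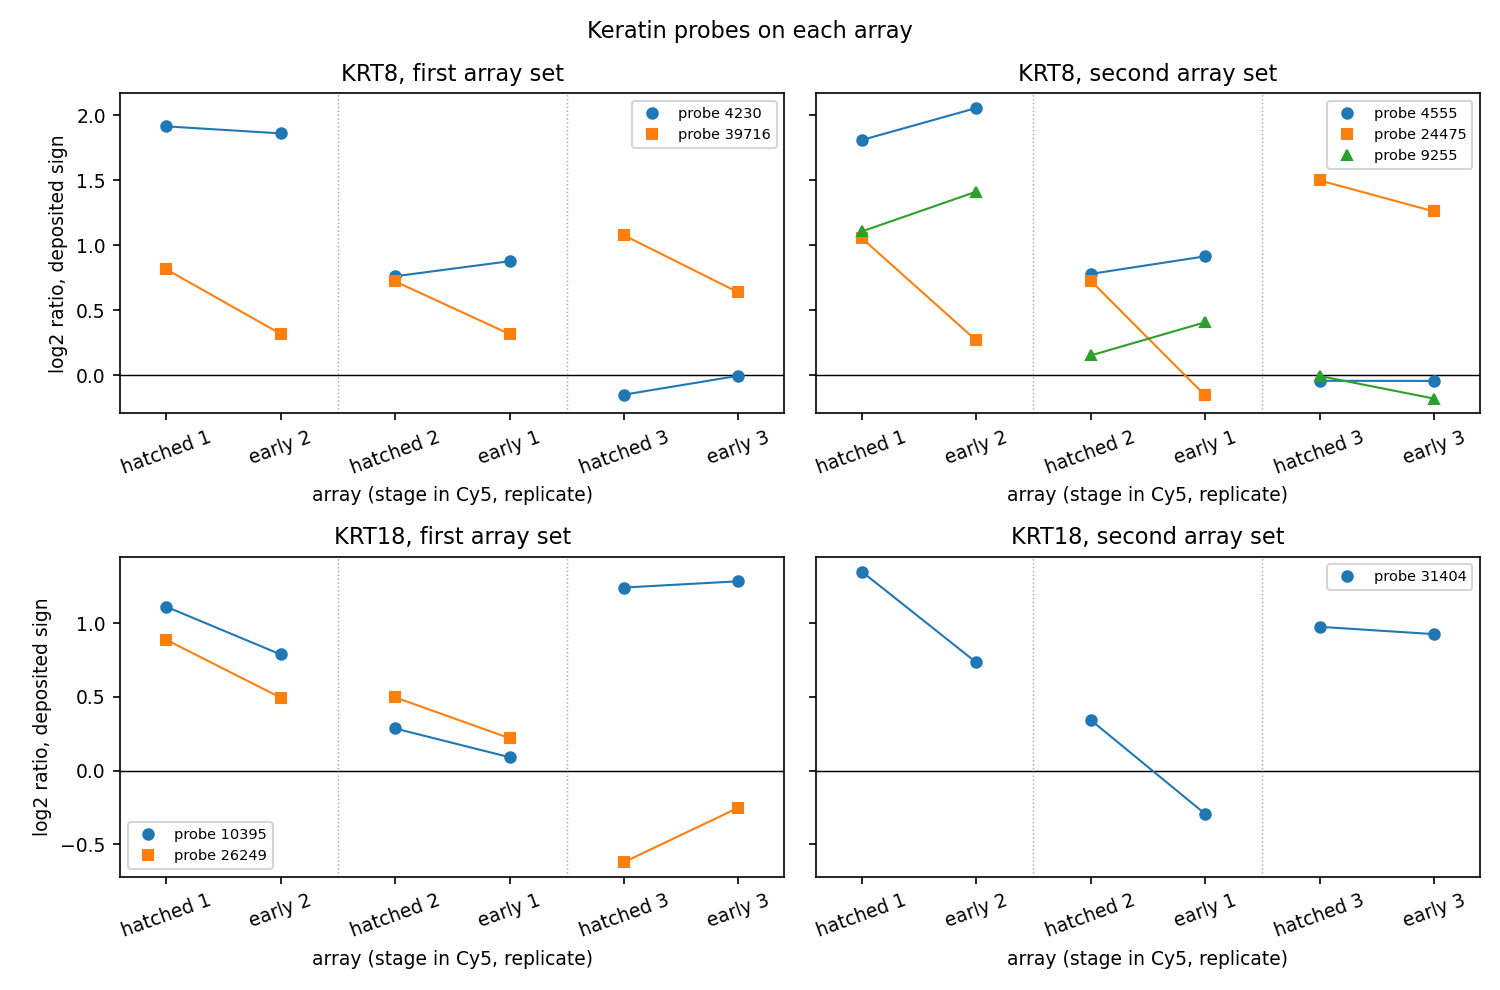
Log2 ratio (y axis, deposited sign) of each KRT8 and KRT18 probe on each array (x axis, stage in Cy5 and replicate). Lines join the arrays of a residual pair. KRT8 probes 4230, 4555 and 9255 and KRT18 probe 26249 fall below 0 on pair C, whereas KRT8 probes 39716 and 24475 and KRT18 probes 10395 and 31404 lie between 0.64 and 1.50 there.

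As gene averages, KRT8 had a ratio of 0.76 ± 0.14 on the first design (adjusted p = 0.0259) and 0.72 ± 0.16 on the second (adjusted p = 0.0279), positive on all 6 arrays of both, as were 4.21% and 6.97% of all genes. KRT18 had 0.50 ± 0.11 (adjusted p = 0.0472) and 0.67 ± 0.19 (adjusted p = 0.0616). In the Sscrofa11.1 annotation both genes lie on chromosome 5 with 1 uncharacterised gene between them. Their averages differed by 0.26 on the first design, with KRT8 higher on 5 of 6 arrays (exact sign-flip permutation test, 2-sided, p = 0.0938; adjusted p = 0.207 over 64 differences), and by 0.05 on the second, with KRT8 higher on 3 of 6 (p = 0.781). These tests do not show that both changed alike, since the per-array difference had an SD of 0.25 and 0.52.

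CDX2 probe means lay on the positive side, from 0.13 to 0.44, and none was called. Probe 17479 read 0.22, -0.04 and 0.51 on hatched arrays 1 to 3 and 0.24, 0.44 and 1.26 on early arrays 1 to 3, with early array 3 far above the others. Its mean was 0.44 ± 0.14 (adjusted p = 0.161). Probe 7681 had a mean of 0.22 ± 0.11 (adjusted p = 0.434), highest on hatched array 1 at 0.75 and lowest on hatched array 2 at -0.08. Probe 1809 had a mean of 0.13 ± 0.06 (adjusted p = 0.399) and ranged from 0.0031 to 0.27. All 3 carried the same accession. The gene average was 0.26 ± 0.07 (95% interval 0.11 to 0.42, limma adjusted p = 0.0754). It was positive on all 6 arrays, as were 4.21% of all genes, and ranked 638 of 11913 from the positive end. It was called without pair B, at 0.34 (adjusted p = 0.0414), where calls over all genes of that design rose from 566 to 1166.

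TEAD4 ratios were near 0 in the mean and differed between pairs. Probe 16668 of the first design read 0.60 and 0.56 on pair A, -0.33 and -0.33 on pair B, and 0.29 and 0.10 on pair C (hatched array first). On the second design probe 14063 read 0.70 and 0.90, -0.34 and -0.28, and 0.54 and 0.28 in the same order. Probe 28630 read 0.69 and 0.54, -0.35 and -0.39, and 0.40 and 0.26. The 3 probes were thus positive on pairs A and C and negative on pair B, in both dye orientations. Their means were 0.15 ± 0.15 (adjusted p = 0.735), 0.30 ± 0.18 (0.492) and 0.19 ± 0.16 (0.659). Without pair B 14063 was called at 0.61 (adjusted p = 0.0186) and 28630 at 0.48 (0.0284), where calls over all probes of the second design rose from 2766 to 5448.

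Of the other TEAD4 probes, 40460 and 9795 changed sign with the dye orientation, where ratios are taken as already turned to 1 direction. Probe 40460 was negative on the hatched arrays (-0.33, -0.48 and -0.60 on arrays 1 to 3) and positive on the early arrays (0.06, 0.10 and 0.26), so that its dye term was -0.30 and its mean -0.16 ± 0.06 (adjusted p = 0.28). Probe 9795 of the second design did the same, at -0.10, -0.26 and -0.07 against 0.13, 0.26 and 0.34, with a dye term of -0.19 and a mean of 0.05 ± 0.07. Probes 44570, 4211 and 11677 had means of 0.10 ± 0.11, -0.22 ± 0.08 and -0.08 ± 0.10 and were not called either. Probes 16668 and 40460 carried no accession, so whether all TEAD4 probes read 1 transcript was not tested. Averaged, TEAD4 lay at -0.03 ± 0.09 (95% interval -0.24 to 0.18; adjusted p = 0.902) and 0.12 ± 0.12 (-0.16 to 0.40; 0.652).

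**Figure D4:**
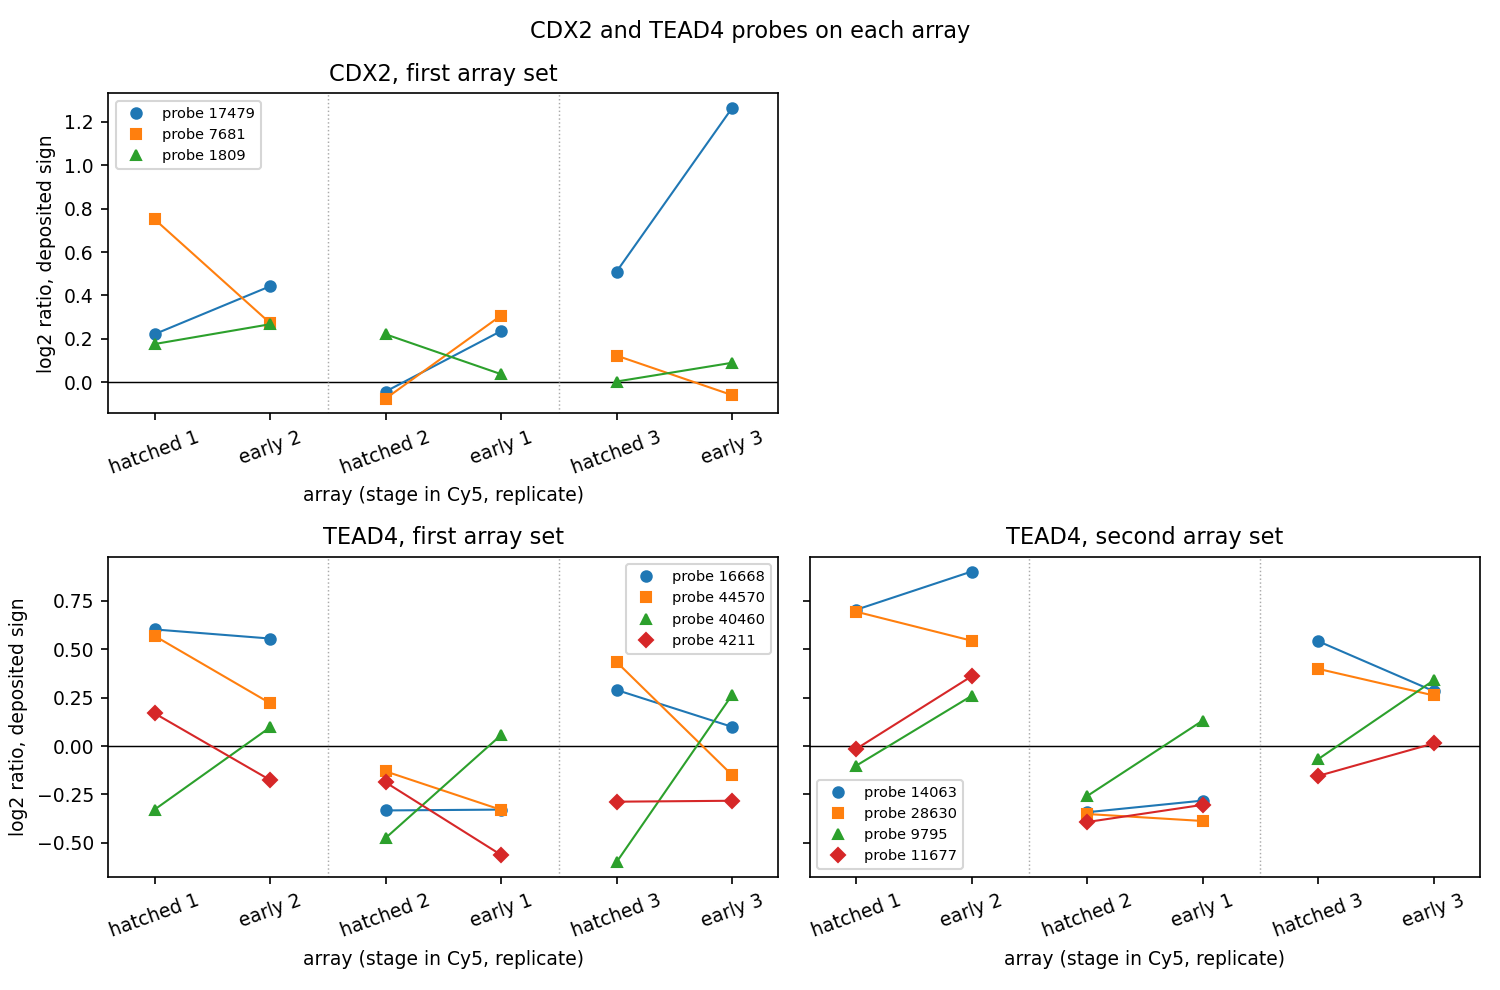
Log2 ratio (y axis, deposited sign) of each CDX2 and TEAD4 probe on each array (x axis, stage in Cy5 and replicate). Lines join the arrays of a residual pair. TEAD4 probes 16668, 14063 and 28630 lie at -0.28 or lower on pair B and above 0 on the others, and CDX2 probe 17479 reaches 1.26 on early array 3.

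Differences between members were taken on the same array, in the deposited sign. With the ratio turned each keeps its size and p and changes its sign. LGALS3 lay above DAB2 by 1.22 ± 0.68 on the first design and by 2.21 ± 0.82 on the second (SD over 6 arrays). KRT8 lay above DAB2 by 0.90 ± 0.47 and 1.84 ± 0.59. CDX2 lay above TEAD4 by 0.30 ± 0.15 on the first design. Each of these held on 6 of 6 arrays, as did LGALS3 above KRT8 on the second design, by 0.38 ± 0.29 (exact sign-flip permutation tests, 2-sided, p = 0.0312 each, the smallest that flips of 6 single arrays allow, against 0.25 for flips of 3 pairs; adjusted p = 0.118). On the first design LGALS3 lay above KRT8 on 4 of 6 arrays, by 0.33 ± 0.37 (exact p = 0.125; adjusted p = 0.229). CDX2 lay below KRT8 on 5 of 6, with a difference of -0.50 ± 0.40 (exact p = 0.0625; adjusted p = 0.174). Of 64 differences 17 reached the smallest p and none passed after adjustment. Since no p could be smaller, passing would have needed most of the 64 at that value. The adjusted values thus could not single out any 1 difference.

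The calls of the averaged genes depended on which arrays were used. On the first design the slide as a fixed block ended the calls of LGALS3 (1.11, limma adjusted p = 0.0542), KRT8 (0.82, 0.0585) and KRT18 (0.52, 0.126). Within the slide that held 4 arrays the ratios were 1.05 for LGALS3 (adjusted p = 0.0385), 0.65 for KRT8 (0.11) and 0.46 for KRT18 (0.0425), and the means of the slide that held 2 arrays were 1.17, 0.98 and 0.58. On the second design the slide block kept the calls of LGALS3 and DAB2 and ended that of KRT8 (0.76, adjusted p = 0.0667). The 4-array slide there gave 1.05 for LGALS3 (0.0238), 0.66 for KRT8 (0.0806), 0.74 for KRT18 (0.0393) and -1.26 for DAB2 (0.027), and the 2-array slide 1.20, 0.86, 0.53 and -0.83. A random block for pairs ended 1 of the 6 calls, that of KRT18 on the first design (adjusted p = 0.0783). With limma on 3 pair averages none of the 6 stood (smallest adjusted p = 0.0943, for DAB2 on the second design). Over all genes that fit called 0 on the first design and 4 on the second. Without pair B KRT8 lost its call on the first design (0.81, adjusted p = 0.059) and KRT18 gained one on the second (0.996, 0.00362). Over all genes the calls then rose from 566 to 1166 on the first design and from 498 to 785 on the second. The median over probes in place of the mean ended the call of KRT8 on the second design (0.60, adjusted p = 0.133).

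Leaving out single arrays ended several calls with little change of the ratio. Calls over all genes fell too when an array of pair A or C was left out. On the first design they went from 566 to 234 without hatched array 1 and to 197 without early array 2. They went to 229 without early array 3 and to 258 without hatched array 3. On the second design they went from 498 to 255, 261, 284 and 289 in the same order. On the first design the highest adjusted p for LGALS3 was 0.067, without early array 3, for KRT8 0.0867, without early array 2, and for KRT18 0.176, without early array 3. LGALS3 also lost its call without early array 2 (0.0536) or hatched array 3 (0.0604). KRT8 lost it without hatched array 1 (0.0675), early array 1 (0.0569) or early array 3 (0.0592), and KRT18 without any array but early array 1. On the second design KRT8 lost it without hatched array 1 (0.076), early array 2 (0.0702), early array 3 (0.0529) or hatched array 3 (0.0579). There LGALS3 and DAB2 were called without each array in turn, and KRT18 became called at 0.86 without early array 1 (0.0182) and at 0.81 without hatched array 2 (0.0354).

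Related genes were described by lists. Of 11 regulators of the trophectoderm, all measured on the first design, 1 was called positive and none negative, with a median ratio of 0.02, and of 6 measured on the second 1 was positive and 1 negative, with a median of -0.12. The genes were GATA2, a zinc finger factor of trophoblast cells (1.06 ± 0.15 and 1.30 ± 0.20), and TFAP2C, an AP-2 factor of trophoblast cells (-0.71 ± 0.18 on the second design; adjusted p = 0.0477). Of the Hippo pathway and the partners of TEAD4, none of 10 measured genes was called on the first design (limma, 1 at an unadjusted p under 0.05). On the second 2 of 5 were called, both negative: the kinase gene LATS2 (-0.41 ± 0.10) and SAV1, a scaffold of the Hippo kinases (-0.29 ± 0.06). Both calls ended with a random block for pairs (adjusted p = 0.0795 and 0.064).

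Of the other keratins none of 6 was called on the first design (limma, 0 at an unadjusted p under 0.05), and on the second KRT5, a keratin of basal cells, was 1 of 4, at -0.51 ± 0.09 on the negative side of 6 arrays. Of the desmosome and linker proteins that hold keratin filaments, none of 7 was called on the first design (2 at an unadjusted p under 0.05) and 1 of 2 on the second, the linker gene DST at -1.40 ± 0.16. No other galectin was called, among 5 on the first and 7 on the second design (0 and 1 at an unadjusted p under 0.05 by limma). No endocytic adaptor or receptor around DAB2 was called among 12 and 6 (3 and 3 at an unadjusted p under 0.05). These counts stand beside 4.75% and 11.0% of all genes called.

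Markers of other cells were read beside these results, and their part in them was not tested. Among inner cell mass genes 1 of 8 was called on the first design, on the negative side, and 3 of 8 on the second, 2 positive and 1 negative. A random block for pairs left 0 and 2 of these calls, ending those of SALL4 (adjusted p = 0.126) and LIN28A (0.085). The 2 left were KLF4 at -1.28 ± 0.17 and DPPA5 at 0.89 ± 0.10, both on the second design. Among hypoblast genes 5 of 10 were called on the first design, each positive, and 5 of 7 on the second, 4 positive and 1 negative, with median ratios of 0.35 and 0.42. On the first these were APOA1 (2.32), LAMB1 (0.79), APOE (0.67), FLRT3 (0.67) and COL4A1 (0.45). On the second the positive ones were FN1 (2.61), APOE (1.56), APOA1 (1.54) and FLRT3 (0.42), and the negative one was GATA6 (-0.72). Of the oviduct and uterine genes 0 of 8 (limma, 2 at an unadjusted p under 0.05) and 1 of 7 were called, the latter UPTI, an inhibitor of plasmin and trypsin, at 2.97 ± 0.40. It read 1.83 and 2.11 on pair B, 2.34 and 2.65 on pair C and 4.43 and 4.46 on pair A, an order of pairs that LGALS3 shared. The order was not particular to them, since FN1 of the hypoblast list had it too on that design. FN1 read 1.65 and 1.69 on pair B, 2.89 and 2.89 on pair C and 3.33 and 3.21 on pair A. On the first design UPTI was not called, at 0.60 ± 0.16 (adjusted p = 0.101), and was lowest on pair C. None of 5 blood and immune genes and none of 6 and 5 cumulus and granulosa genes was called (limma, 0 at an unadjusted p under 0.05 in each list).

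The genes whose ratios lay closest to each member over the 12 arrays were taken from 3706 genes measured on both designs, by the root mean square difference. For KRT8 they were RGL2 (0.27), PTGES (0.29) and FASN (0.30). For KRT18 they were RPL35 (0.28), ATP5I (0.29) and RPL8 (0.29). For LGALS3 they were APOC3 (0.42), GATA2 (0.45) and KRT8 (0.47), and for DAB2 XRN2 (0.27), MELK (0.27) and INTS10 (0.38). For TEAD4 they were GOT2 (0.12), PPP1R11 (0.14) and RRP36 (0.14). The median difference over all these genes was 0.87 from KRT8, 0.76 from KRT18, 1.21 from LGALS3, 0.89 from DAB2 and 0.37 from TEAD4.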

How the data were processed

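Total RNA of each stage was amplified in 2 rounds with T7 RNA polymerase and labelled with Cy3 or Cy5 by the ULS system, per the labels' protocols. The deposited values are normalized log ratios, read here as log2, 1 per probe and array. For background correction, normalization, log base and direction, the method is not given in the sources used here. The log2 unit was inferred from values of -12.7 and 12.2 on the second array set, a range too wide for log10. A natural log was not tested. Array medians lay between -0.0061 and 0.0105. Ratios of arrays with opposite dye orientation correlated at up to 0.65 on the first and 0.57 on the second array set (lowest -0.08 and -0.17). Of the 9 opposite pairs 6 and 7 were above 0. Arrays of the same orientation correlated more evenly, at 0.31 to 0.73 and 0.31 to 0.67, with 6 of 6 pairs above 0 on each set. The deposited values were taken as already turned to 1 direction, and the means and calls rest on this reading.

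Each array set was fitted alone over all its probes, and again over gene averages, by lmFit and eBayes of limma 3.58.1, run under R 4.3.3 (a mean and a dye term coded -1 and 1), tested 2-sided. The fit was tested on simulated data with independent errors on the 6 arrays, so this test does not cover the correlation within pairs. Symbols came from GEO's platform annotation (18121 and 10290 probes with 1 symbol, 0 with several, 25673 and 34930 with none). They were updated by accession (2658 and 6055 matched) or synonym (241 and 70) through RefSeq genes of Sscrofa11.1. Unnamed probes may include control spots. No coordinates are given, since no genome build is stated for these arrays, and no probe or protein sequence was used. The named genes are all member probes, called members of context lists (at most 6 a list and array set) and the 3 closest genes per member, LOC symbols passed over. The members, lists and pairs were chosen with earlier results of these data known. Alternatives covered the dye term, centring, scaling, probe filter, spread, slide, pairs, direction and single arrays.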

Additional observations from a re-analysis of the deposited data

How the results depend on the processing

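Removing the dye term, centring the arrays, scaling them, a robust spread and the pairs as a random block left each count of calls, over all features and over members, within 1.5 times its value. Keeping only probes with a symbol gave 872 called probes instead of 2032 on the first design and 1010 instead of 2766 on the second, by construction with fewer probes tested. With the slide as a fixed block 866 and 1501 probes and 249 and 290 genes (instead of 566 and 498) were called, with 2 of 3 and 6 of 9 member probes and 0 (4 at an unadjusted p under 0.05 by limma) and 2 of the 3 member genes on each design. On the slide with 4 arrays there were 1218 and 1222 probes and 243 and 210 genes, with 2 and 9 member probes and 2 and 3 member genes. With 3 pair averages 1 and 41 probes, 0 and 4 genes and 0 of the members were called (limma, 4231 probes and 1271 genes of the first design and, of the members, 4 and 10 probes and 4 and 4 genes at an unadjusted p under 0.05), a fit of fewer values. Without pair B there were 4264 and 5448 probes, 1166 and 785 genes, 6 and 12 member probes and 3 and 4 member genes. Had the ratios been deposited as Cy5 over Cy3, 1327 and 3 probes, 118 and 0 genes and 0 of the members would be called (limma, of the members 2 and 2 probes and 0 genes at an unadjusted p under 0.05). At that unadjusted p this reading gave 10279 probes and 2537 genes on the first design, more than the 6630 and 2034 of the main fit. On the second design it gave 6958 probes and 648 genes, fewer than the 7402 and 1075 of the main fit. Leaving out 1 array at a time gave 679 to 2443 and 1307 to 3348 probes, 197 to 610 and 255 to 578 genes, 1 to 4 and 4 to 10 member probes, and 0 to 2 and 2 to 4 member genes. The count of 0 was without early array 2 or early array 3 (4 at an unadjusted p under 0.05 each). Among 231 alternative values for gene averages 42 lost a call and 5 gained one. Among 594 for single probes 55 lost and 10 gained one. Both totals include values of features not called in the main fit, which had no call to lose, and 2-array slide values without a p. They are thus no base for a rate of loss. Only the 3 member genes called on each design, and the 3 and 9 called member probes, could lose one. The 231 also include single probes in place of the average, among them the LGALS3 probe left out of that average. No called value changed sign, and a change of sign between 2 values that were not called was not counted. Where no construction is named the cause was not tested. The array numbers follow the order of deposition and were not used as a block, and the pairs named here come from the residuals of these arrays. A probe not named by the annotation was not assigned to a member. The number of arrays limits the precision, and signal over background was not analysed here.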
